A study of Sus scrofa with 11 samples.

Results

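The Wnt ligands, their receptors and the secreted and intracellular proteins that tune them were examined in porcine skin wounds. The 55 genes were taken by name from the 30376 genes of the expression table: every gene whose symbol begins with WNT, FZD, SFRP, DKK, RSPO or AXIN, together with LRP5, LRP6, LGR4, LGR5, LGR6, WIF1, CTNNB1, LEF1, TCF7, TCF7L1 and TCF7L2. They comprised 19 ligands, 10 Frizzled receptors, 2 coreceptors, 10 secreted antagonists, 7 R-spondins and LGR receptors, and 7 intracellular effectors. A total of 40 reached 0.5 FPKM (fragments per kilobase of gene model, with a scaling for each library) in at least 4 wounds and were tested, and 15 did not.

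Wnt proteins are lipid-modified signals that bind Frizzled receptors. With LRP5 or LRP6 as coreceptor they protect beta-catenin (CTNNB1) from a destruction complex built on Axin, and beta-catenin then acts on genes through the TCF and LEF factors. Without LRP5 or LRP6, some ligands, WNT5A among them, act through the planar cell polarity and calcium branches. SFRP and WIF1 proteins bind the ligands, and some DKK proteins, DKK1 and DKK4 among them, block the coreceptors. R-spondins act through LGR receptors to keep Frizzled proteins at the cell surface. In skin the pathway is known for its part in hair follicle growth, in the renewal of epidermal keratinocytes and in the behaviour of wound fibroblasts.

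The study compared full-thickness wounds of a female Yucatan minipig made diabetic with streptozotocin, a toxin of pancreatic beta cells, with wounds of a female non-diabetic Yucatan minipig. Streptozotocin was given at 6 months of age, and wounding followed 60 days later, after insulin support had been withdrawn. The age of the non-diabetic minipig is not given in the sources used here. Wounds were made on the back with a 2 cm punch, and the wound tissue was collected on day 10. The 7 diabetic wounds (D1 to D7) came from 1 minipig and the 4 non-diabetic wounds (N1 to N4) from 1 other minipig. Diabetes and the individual animal therefore cannot be told apart, and every p-value below measures the spread between wounds, not between animals.

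Poly(A) RNA libraries held 28314785 to 40168372 reads on genes. Of the 11 libraries, D4 and N1 stood apart from the others on the first principal component, which carried 44.5% of the variance over the tested genes. The summed level of 14 keratinocyte markers was 58.2 FPKM in D4 and 357 FPKM in N1, against 1925 to 7213 FPKM in the other 9 wounds. The 10 fibroblast markers summed to 19242 to 52968 FPKM in the diabetic wounds against 34522 to 65227 FPKM in the non-diabetic ones. The medians of these sums were 46300 FPKM in the diabetic and 40084 FPKM in the non-diabetic wounds. The 8 macrophage markers summed to 701 to 1636 FPKM in the diabetic wounds against 451 to 854 FPKM in the non-diabetic ones. Genes of skeletal muscle reached 1718 FPKM in D3 and at most 0.24 FPKM elsewhere. All 12 listed markers of the hair follicle were in the table, but KRT25, KRT27, KRT71, KRT85, TCHH and SHH stayed under 0.5 FPKM in every wound. The 12 summed to 44.4 to 69.4 FPKM (median 51.7) in the diabetic wounds against 29.2 to 62.8 FPKM (median 34.1) in the non-diabetic ones. The part of these differences in cell content in the results below was not tested.

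The DNA just upstream of 3 of the genes is shown because AXIN2 and LEF1 are common readouts of beta-catenin activity and WNT2 is the gene on which the comparison below turned. Each line gives the 250 bases before the annotated start, 5′ to 3′ on the strand of the gene, from the RefSeq annotation of Sscrofa11.1. Capitals mark a TCF/LEF motif, searched on both strands with the spellings CTTTGAA and CTTTGAT, and likewise CTTTGTA and CTTTGTT. The windows are chr12:12343208-12343457 on the minus strand for AXIN2, chr8:113824261-113824510 on the plus strand for LEF1, and chr18:28945575-28945824 on the plus strand for WNT2.
AXIN2: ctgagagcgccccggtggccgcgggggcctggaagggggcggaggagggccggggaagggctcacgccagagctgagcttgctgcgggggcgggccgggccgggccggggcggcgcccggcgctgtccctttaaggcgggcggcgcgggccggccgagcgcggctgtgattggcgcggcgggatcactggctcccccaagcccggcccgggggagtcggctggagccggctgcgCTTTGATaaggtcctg
LEF1: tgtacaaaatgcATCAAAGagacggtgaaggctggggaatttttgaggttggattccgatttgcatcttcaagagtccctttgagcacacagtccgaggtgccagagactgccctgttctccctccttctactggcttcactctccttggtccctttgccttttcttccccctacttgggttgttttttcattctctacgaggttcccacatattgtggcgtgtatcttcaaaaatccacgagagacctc
WNT2: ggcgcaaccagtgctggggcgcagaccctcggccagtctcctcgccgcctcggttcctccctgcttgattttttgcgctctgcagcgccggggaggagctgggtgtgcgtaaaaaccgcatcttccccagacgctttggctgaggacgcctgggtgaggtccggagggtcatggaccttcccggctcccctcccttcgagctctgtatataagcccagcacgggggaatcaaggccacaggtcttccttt

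The AXIN2 window held 1 match close to the start of the gene. The LEF1 window held 1 match on the opposite strand, near its far end, and the WNT2 window held 0. Of the 55 genes, 7 (12.7%) had a match in this window, namely AXIN2, LEF1, FZD1, FZD7, WNT8B, DKK1 and DKKL1. Among 19556 protein-coding genes, 2190 (11.2%) had one. A match describes the letters of the window and is not evidence of binding.

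WNT2, a canonical ligand, was the one gene of the set that passed the test between diabetic and non-diabetic wounds, at a lower level in diabetic wounds. The test was limma on log2(FPKM + 0.5) over all 13956 tested genes, with a gene called at an adjusted p under 0.05 and a log2 fold change beyond 0.5 in either direction. On that scale fold changes of weakly expressed genes are understated. WNT2 was called lower in diabetic wounds, 1 of 40, against a background of 1.66% of all tested genes called lower. None of the 40 was called higher in the limma fit, against a background of 1.35%, and limma voom on reads recovered from the FPKM values also called none higher, against 1.04%, and WNT2 lower, against 1.96%. Before adjustment 6 of the 40 had p under 0.05, against 18.4% of all tested genes. Of these, WNT2, WNT9A, RSPO3, LGR4 and CTNNB1 were lower and LRP5 was higher. The groups did not overlap for 1 of the 40 genes, against 5.65% of all tested genes. The median log2 fold change was 0.01 over the 40 genes and 0.01 over all tested genes, with 17 of the 40 below 0, against 47.7% of all tested genes.

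**Figure D1:**
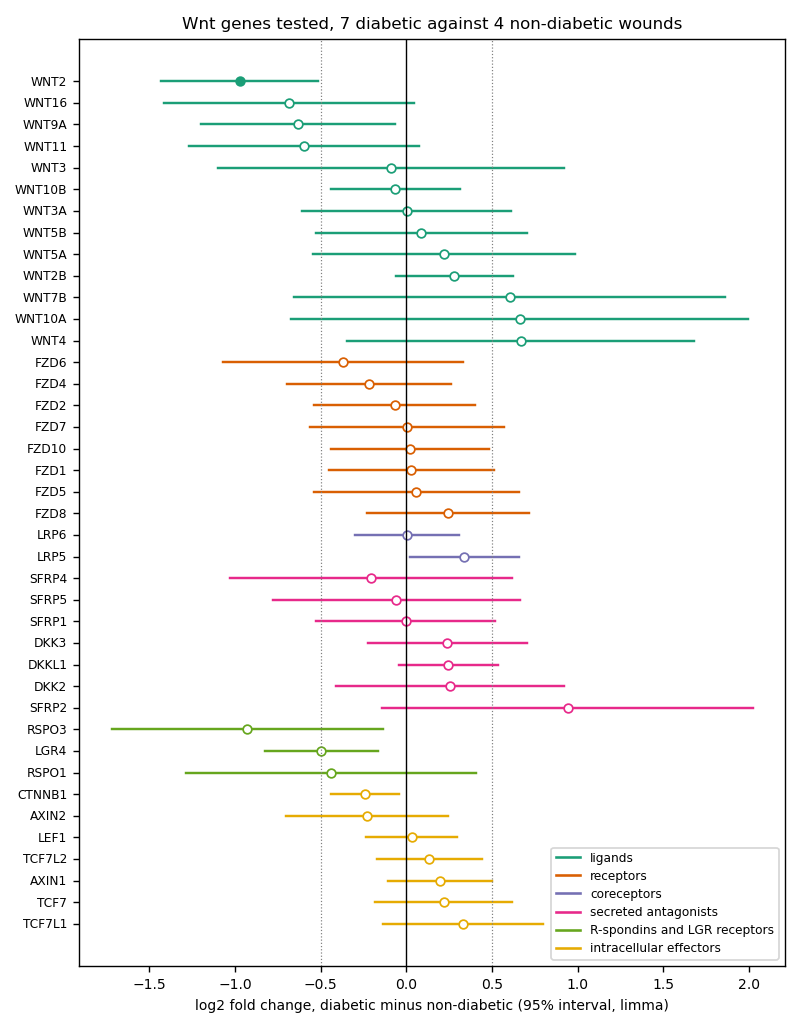
Log2 fold change (x axis, diabetic minus non-diabetic wounds) of the 40 tested genes, listed by role, with 95% intervals from limma and dotted lines at a log2 fold change of 0.5 in either direction. The filled point is WNT2 at −0.97, the one gene called, and open points are the 39 genes not called.

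For the 39 genes not called, the 95% interval of the log2 fold change reached between 0.20 and 1.33 to either side, with a median of 0.52. It lay wholly within 1 log2 unit of 0 for 27 genes and extended further for 12. The intervals drawn in the plot of fold changes are widest for WNT10A, WNT7B and SFRP2 and narrowest for CTNNB1.

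The WNT2 gene lies at chr18:28945825-28993969 on the plus strand with 5 exonic blocks. It measured 1.42, 1.36, 1.48, 1.79, 2.40, 1.20 and 1.83 FPKM in D1 to D7, and 6.38, 3.29, 2.89 and 2.82 FPKM in N1 to N4. All 7 diabetic wounds were below all 4 non-diabetic wounds, and N1 was far above the rest. These values rested on 198 to 492 reads in diabetic and 632 to 1148 reads in non-diabetic libraries.

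Mean WNT2 was 1.64 ± 0.404 FPKM (SD, n = 7) in the diabetic wounds against 3.85 ± 1.70 FPKM (SD, n = 4) in the non-diabetic ones. WNT2 had a log2 fold change of −0.97 ± 0.21 (SE), with an adjusted p of 0.0286 by limma. The exact two-sided permutation test over the 330 splits of the wounds gave p = 0.00606, the smallest it can give. Library names begin with L or R, a letter whose meaning the labels do not state. WNT2 was lower in the diabetic wounds within each letter: 1.36 to 1.48 against 3.29 and 6.38 FPKM among L libraries, and 1.20 to 2.40 against 2.82 and 2.89 FPKM among R libraries.

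WNT2 was called in 16 of 23 refits with other settings or wounds, and its fold change stayed negative in all 23. Without D4 and N1 together it was −0.75 with an adjusted p of 0.0655 by limma. Leaving out N1 alone gave −0.73 (adjusted p = 0.0551), and leaving out N2 gave −1.02 (adjusted p = 0.0604). Leaving out N3 gave −1.07 (adjusted p = 0.0509), and leaving out D3, the wound with muscle RNA, gave −0.96 (adjusted p = 0.0579). Wounds are mixtures, so fewer cells that make a transcript and less of it per cell cannot be told apart here. The fibroblast marker sum was highest in N1, as WNT2 was. By group its median was higher in the diabetic wounds, at 46300 FPKM against 40084 FPKM. The markers include the collagen genes COL1A1, COL1A2 and COL3A1, so the sum is a level of transcripts and not a count of fibroblasts. The part of fibroblast content in the WNT2 difference was not tested.

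**Figure D2:**
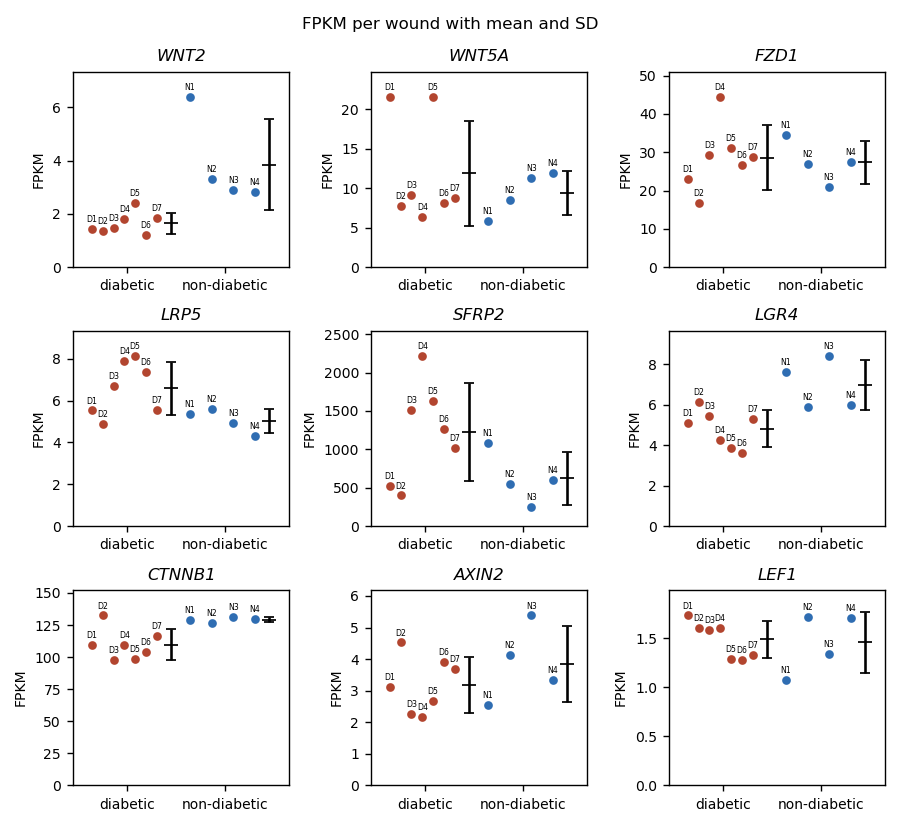
FPKM (y axis, from 0) of 9 genes in each of the 7 diabetic and 4 non-diabetic wounds, each point labelled with its wound, with the mean and SD beside each group. WNT2 is the panel without overlap: the highest diabetic wound is at 2.40 FPKM and the lowest non-diabetic wound at 2.82 FPKM.

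WNT2 was a small share of the ligand transcripts outside N1, where its share was 18.5%. It made up 2.56 to 7.65% (median 4.28%) of the summed FPKM of the 19 ligands in diabetic wounds and 6.28 to 18.5% (median 8.12%) in non-diabetic wounds. The summed FPKM of the ligands itself spanned 23.4 to 54.8 (median 41.1) in diabetic and 31.5 to 46.0 (median 39.8) in non-diabetic wounds, so the totals overlapped throughout.

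WNT5A, a ligand of the non-canonical branches, had the highest mean FPKM of the ligands over the 11 wounds, with WNT5B next. WNT5B was above WNT5A in D4, D6, D7, N1 and N2, and in N1 WNT9A and WNT2 were above WNT5A too. WNT5A ran from 6.34 through a median of 8.76 to 21.5 FPKM in diabetic wounds and was 5.84, 8.50, 11.3 and 11.9 FPKM in N1 to N4. D1 and D5 alone were above every non-diabetic wound, and the groups overlapped. WNT5A had a log2 fold change of 0.22 (95% interval −0.54 to 0.98, adjusted p = 0.797 by limma). WNT5B averaged 8.50 ± 3.13 FPKM in the diabetic wounds against 7.85 ± 2.38 FPKM in the non-diabetic ones, with a log2 fold change of 0.09. Together WNT5A and WNT5B made up 34.5 to 63.9% of the summed ligand FPKM in the diabetic wounds against 39.2 to 52.1% in the non-diabetic ones.

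WNT9A, WNT16 and WNT11 had negative log2 fold changes of −0.63, −0.68 and −0.60, and none passed the adjusted threshold. WNT9A was 1.52 to 2.72 FPKM in diabetic wounds and 6.88, 3.55, 3.17 and 1.91 FPKM in N1 to N4. Its adjusted p was 0.218 by limma, and its exact two-sided permutation p was 0.0606. Like WNT2, WNT9A peaked in N1, and without D4 and N1 its log2 fold change was −0.33. WNT16, a ligand made by keratinocytes among other cells, was 0.918 to 4.74 FPKM in the diabetic wounds against 1.81 to 4.29 FPKM in the non-diabetic ones. WNT11 was 0.143 to 1.61 FPKM in the diabetic wounds against 0.645 to 2.16 FPKM in the non-diabetic ones. For both, D6 was the highest diabetic wound, inside the non-diabetic range for WNT11 and above it for WNT16.

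WNT10A, WNT7B, WNT4, WNT3 and WNT3A are ligands known from epidermis and hair follicles, and as a group they were chosen here after their values were seen. WNT10A was 0.108 FPKM in D4 and 0.432 FPKM in N1, against 1.16 to 7.35 FPKM in the other 9 wounds. WNT7B was 0.202 and 0.312 FPKM in these wounds, against 1.11 to 5.41 FPKM elsewhere. WNT4 was 0.440 and 0.452 FPKM there, against 1.43 to 5.10 FPKM elsewhere. D4 and N1 were the lowest wounds of their groups for all 5 ligands. The 5 ligands summed to 1.16 FPKM in D4 and 2.17 FPKM in N1, and to 6.31 to 19.7 FPKM in the other 9 wounds. D4 and N1 are also the wounds in which the 14 keratinocyte markers summed lowest. None of the 14 was under 0.5 FPKM in every wound, and IVL was at 0 in D4. The part of keratinocyte content in the level of these ligands was not tested.

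Between diabetic and non-diabetic wounds these 5 ligands did not pass the test. The log2 fold change was 0.66 for WNT10A (95% interval −0.67 to 2.00), 0.60 for WNT7B (−0.65 to 1.86) and 0.67 for WNT4 (−0.34 to 1.68). It was −0.09 for WNT3 and 0.00 for WNT3A, whose direction depended on the setting. Without D4 and N1 the fold changes of WNT10A, WNT7B and WNT4 were 0.69, 0.51 and 0.61, with adjusted p of 0.409, 0.442 and 0.310 by limma. Leaving out 1 wound at a time moved them further, from 0.30 to 1.06 for WNT10A, from 0.15 to 0.97 for WNT7B and from 0.33 to 0.95 for WNT4, lowest without N1 and highest without D4. The keratinocyte markers had a median sum of 5016 FPKM in the diabetic wounds against 2696 FPKM in the non-diabetic ones. Without D4 and N1 their sums were 2812 to 7213 FPKM and 1925 to 3581 FPKM. These sums are weighted towards abundant keratins, KRT1 and KRT10 being 2940 and 1960 FPKM in D6, and do not count keratinocytes. Single markers went both ways. By median KRT5, KRT14, KRT15, DSP, PKP1, SFN and IVL were higher in the diabetic wounds. KRT1, KRT10, TP63, DSG3, DSC3, CDH1 and GRHL3 were lower. The part of keratinocyte content in these fold changes was not tested.

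**Figure D3:**
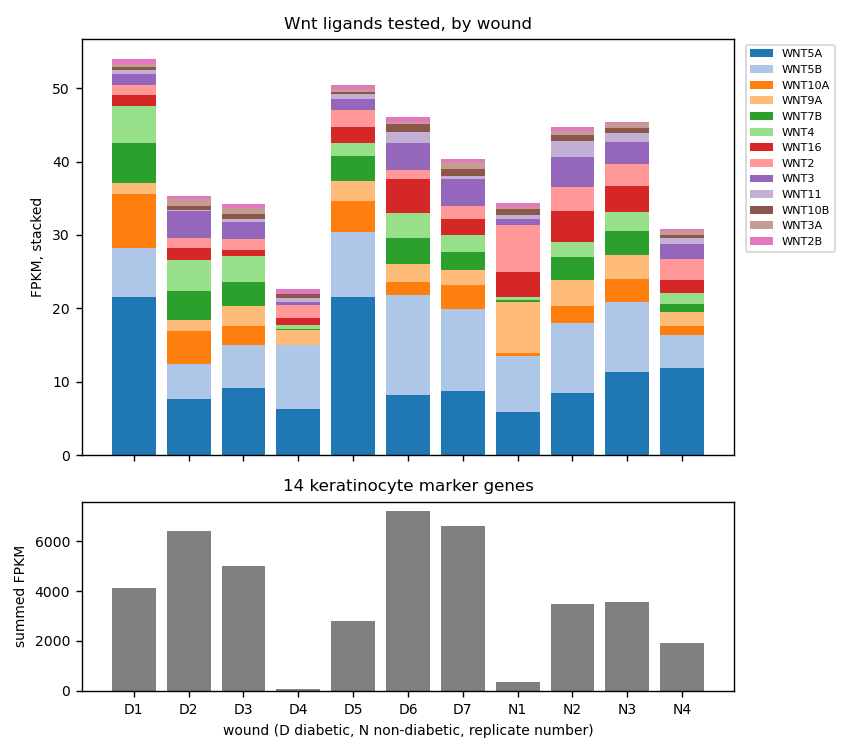
Upper panel, FPKM of the 13 tested ligands stacked for each wound; lower panel, summed FPKM of the 14 keratinocyte markers in the same wounds, both axes from 0. WNT10A, WNT7B, WNT4 and WNT3 nearly vanish from the stacks of D4 and N1, the wounds with 58.2 and 357 FPKM of keratinocyte markers.

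The remaining tested ligands, WNT2B and WNT10B, were weakly expressed. WNT2B averaged 0.522 ± 0.124 FPKM in the diabetic wounds against 0.351 ± 0.193 FPKM in the non-diabetic ones, with a log2 fold change of 0.28. WNT10B averaged 0.651 ± 0.254 and 0.687 ± 0.149 FPKM. The other 6 ligands, WNT1, WNT6, WNT7A, WNT8A, WNT8B and WNT9B, stayed at or below 0.504 FPKM and 79 reads in every wound.

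Of the Frizzled receptors, 0 of the 8 tested passed the test by limma, and none had an unadjusted p under 0.05. FZD1, the most abundant on the FPKM scale, lies at chr9:71346994-71356488 in a single exonic block. It ran from 16.7 through a median of 28.7 to 44.4 FPKM in diabetic wounds and was 34.5, 26.9, 20.9 and 27.4 FPKM in N1 to N4. All 4 non-diabetic wounds lay inside the diabetic range, with D2 the lowest and D4 the highest wound. For FZD1 the log2 fold change was 0.03 (95% interval −0.45 to 0.51), turning negative in some refits.

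FZD2 and FZD7 had similar levels on the FPKM scale. FZD2 averaged 23.4 ± 6.35 FPKM in the diabetic wounds against 24.1 ± 4.56 FPKM in the non-diabetic ones, and FZD7 averaged 18.5 ± 6.20 and 18.0 ± 4.70 FPKM. FZD1, FZD2 and FZD7 were all highest in D4 among diabetic wounds and in N1 among non-diabetic wounds, the reverse of the epidermal ligands. FZD10, FZD4 and FZD6 averaged between 6.59 and 8.37 FPKM in either group, with log2 fold changes of 0.02, −0.22 and −0.37. FZD8 and FZD5 were weaker, with log2 fold changes of 0.24 and 0.06. FZD3 and FZD9 stayed at or below 0.179 FPKM in every wound.

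Of the coreceptors, LRP5 had an unadjusted difference that did not survive adjustment. LRP5 ran from 4.89 through a median of 6.72 to 8.12 FPKM in diabetic wounds and was 5.37, 5.60, 4.93 and 4.29 FPKM in N1 to N4. D3, D4, D5 and D6 were above every non-diabetic wound and the other diabetic wounds lay within the non-diabetic range. LRP5 had a log2 fold change of 0.34 (95% interval 0.02 to 0.66, adjusted p = 0.240 by limma). The exact two-sided permutation p of LRP5 was 0.0606. LRP6 averaged 4.81 ± 0.923 FPKM in the diabetic wounds against 4.75 ± 0.578 FPKM in the non-diabetic ones.

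Transcripts of the secreted antagonists were dominated by SFRP2, which encodes a Frizzled-related protein made by dermal fibroblasts. Its gene lies at chr8:75337311-75345926. SFRP2 measured 526, 400.0, 1511, 2211, 1627, 1264 and 1021 FPKM in D1 to D7, and 1078, 553, 256 and 600 FPKM in N1 to N4. D3, D4, D5 and D6 were above all non-diabetic wounds, whereas D1 and D2 lay among N2, N3 and N4. Mean SFRP2 was 1223 ± 636 FPKM (SD, n = 7) in the diabetic wounds against 622 ± 340 FPKM (SD, n = 4) in the non-diabetic ones.

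The log2 fold change of SFRP2 was 0.94, the largest positive value among the 40 genes. Its 95% interval ran from −0.14 to 2.02, and it did not pass the test (adjusted p = 0.342 by limma; exact two-sided permutation p = 0.139). SFRP2 made up 75.0 to 88.9% (median 85.8%) of the summed FPKM of the 10 antagonists in diabetic wounds and 65.7 to 82.2% (median 74.5%) in non-diabetic wounds. It was highest in D4 and N1 within their groups, the wounds with the fewest keratinocyte transcripts. Without both it had a log2 fold change of 1.09 and an adjusted p of 0.307 by limma. Leaving out 1 wound at a time gave 0.57, without N3, to 1.27, without N1.

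SFRP1, SFRP4 and DKK3 followed at lower levels. SFRP1 averaged 90.7 ± 28.5 FPKM in the diabetic wounds against 90.1 ± 23.7 FPKM in the non-diabetic ones. SFRP4 averaged 42.4 ± 18.0 and 48.5 ± 23.5 FPKM, with N1 the highest wound at 81.4 FPKM. DKK3, a divergent member of the Dickkopf family, averaged 41.8 ± 11.3 and 34.4 ± 5.02 FPKM. For all 3 genes the groups overlapped. Log2 fold changes were −0.21 for SFRP4 and 0.24 for DKK3, and the 95% interval for SFRP1 ran from −0.53 to 0.52.

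SFRP5, DKKL1 and DKK2 completed the tested antagonists, with log2 fold changes of −0.06, 0.25 and 0.25. DKKL1 is named for its likeness to the Dickkopf proteins and is best known from sperm. It averaged 5.02 ± 0.813 FPKM in the diabetic wounds against 4.14 ± 0.571 FPKM in the non-diabetic ones. The coreceptor inhibitors DKK1 and DKK4 stayed at or below 6 and 26 reads in every wound, and the ligand-binding WIF1 at or below 36 reads.

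Among the 15 genes under the filter, no gene had groups that did not overlap. WIF1 and WNT9B had unadjusted exact permutation p-values under 0.05 and are named for that reason, after their values were seen. The share of all genes under the filter with such a value was not computed. By limma, 18.4% of all tested genes had an unadjusted p under 0.05. WIF1 was 0.115 to 0.308 FPKM in the diabetic wounds against 0.298 to 0.445 FPKM in the non-diabetic ones (exact permutation p = 0.0121). WNT9B was 0.252 to 0.504 FPKM in the diabetic wounds against 0.0968 to 0.401 FPKM in the non-diabetic ones (exact permutation p = 0.0424). These levels rested on 7 to 36 reads per library for WIF1 and 14 to 79 reads for WNT9B.

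All 3 tested genes of the R-spondin and LGR group had negative log2 fold changes, against 47.7% of all tested genes. None passed the adjusted test. LGR4, a receptor for R-spondins, was the most abundant and lies at chr2:32871837-32979150. It measured 5.08, 6.13, 5.47, 4.28, 3.87, 3.63 and 5.32 FPKM in D1 to D7, and 7.61, 5.92, 8.40 and 6.00 FPKM in N1 to N4. Only D2 kept the groups from separating: the other 6 diabetic wounds were below every non-diabetic wound. The log2 fold change was −0.50 (95% interval −0.83 to −0.16). The adjusted p was 0.102 by limma, and the exact two-sided permutation p was 0.0182 before any adjustment.

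RSPO3, an R-spondin, was 0.203 to 2.55 FPKM (median 1.18) in diabetic wounds and 2.41, 4.21, 2.15 and 1.80 FPKM in N1 to N4. In 5 diabetic wounds it was below every non-diabetic wound, while D3 and D6 lay in the non-diabetic range. RSPO3 had a log2 fold change of −0.93 (95% interval −1.72 to −0.14, adjusted p = 0.194 by limma). Its level rested on 6 to 83 reads in diabetic and 57 to 111 reads in non-diabetic libraries, over a gene model of 828 coding bases without untranslated regions. RSPO1 was 1.51 to 8.74 FPKM in the diabetic wounds against 2.78 to 5.52 FPKM in the non-diabetic ones, with its highest value in D4 and a log2 fold change of −0.44.

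Summed over the 7 genes of this group, the level was 7.68 to 14.6 FPKM (median 8.81) in the diabetic wounds against 11.06 to 16.4 FPKM (median 14.3) in the non-diabetic ones. D3 and D4 were the diabetic wounds that reached the non-diabetic range. The remaining members were scarce. LGR5, a beta-catenin target and marker of follicle stem cells, was 0.058 to 0.220 FPKM in diabetic wounds and 0.280, 0.106, 0.364 and 0.319 FPKM in N1 to N4. N2 lay inside the diabetic range for LGR5, and the exact two-sided permutation p was 0.0545. LGR6 went the other way, averaging 0.341 FPKM in the diabetic wounds against 0.133 FPKM in the non-diabetic ones (exact permutation p = 0.436). Its highest value was 1.06 FPKM, in D6. RSPO2 and RSPO4 stayed at or below 6 and 19 reads.

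Of the intracellular effectors, CTNNB1 was by far the most abundant on the FPKM scale and also the one with the narrowest interval. Its gene lies at chr13:25163550-25208314. CTNNB1 measured 109.5, 132, 97.7, 109.8, 98.5, 103.8 and 117 FPKM in D1 to D7, and 129, 127, 131 and 130.0 FPKM in N1 to N4. The non-diabetic wounds lay close together, 6 diabetic wounds were below all of them, and D2 was above all of them. CTNNB1 had a log2 fold change of −0.24 (95% interval −0.44 to −0.04, adjusted p = 0.174 by limma; exact two-sided permutation p = 0.0303), which is also smaller than the fold change required for a call.

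AXIN2 and LEF1 did not pass the test between the groups. AXIN2, at chr12:12311293-12343207, encodes an Axin that is itself a target of the pathway. It measured 3.12, 4.53, 2.26, 2.16, 2.67, 3.91 and 3.68 FPKM in D1 to D7, and 2.55, 4.13, 5.38 and 3.32 FPKM in N1 to N4. D3 and D4 alone were below every non-diabetic wound. The log2 fold change was −0.23 (95% interval −0.70 to 0.24, adjusted p = 0.628 by limma).

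LEF1, a nuclear partner of beta-catenin at chr8:113824511-113944078, ran from 1.28 through a median of 1.58 to 1.73 FPKM in diabetic wounds and was 1.08, 1.71, 1.34 and 1.70 FPKM in N1 to N4. The groups overlapped over almost the whole range. LEF1 had a log2 fold change of 0.03 (95% interval −0.24 to 0.30, adjusted p = 0.928 by limma), and it turned negative without D4 and N1.

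TCF7L1, which mostly acts as a repressor, averaged 21.5 ± 5.69 FPKM in the diabetic wounds against 16.6 ± 3.05 FPKM in the non-diabetic ones, a log2 fold change of 0.33 (adjusted p = 0.449 by limma). TCF7L2, TCF7 and AXIN1 had log2 fold changes of 0.13, 0.22 and 0.19. All 4 intervals included 0.

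**Figure D4:**
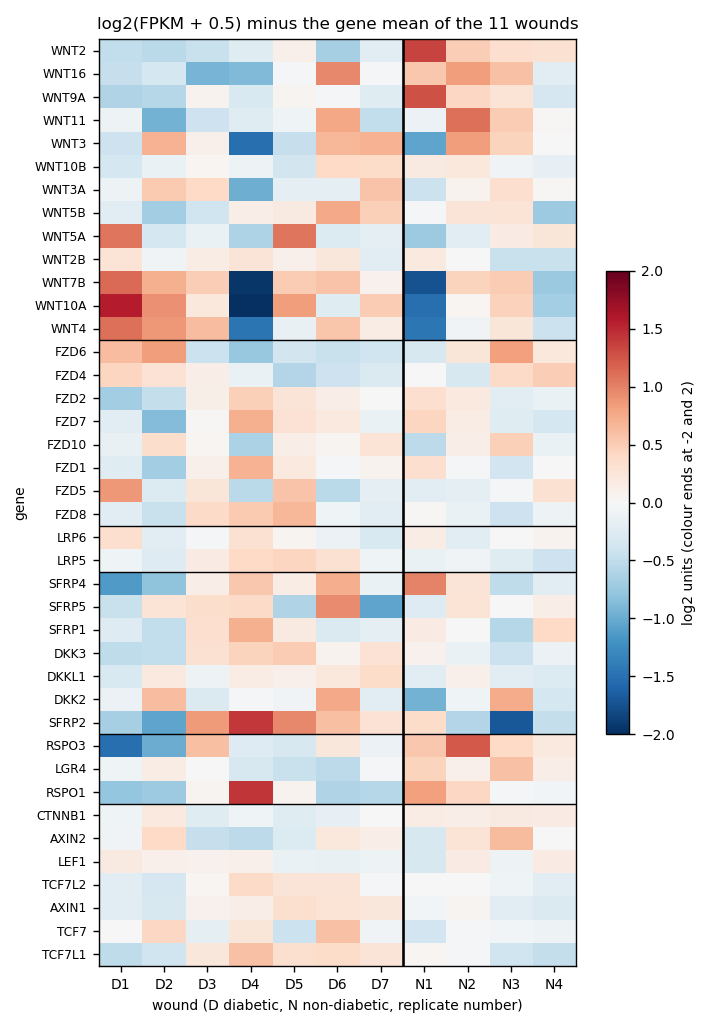
Level of the 40 tested genes in each of the 11 wounds as log2(FPKM + 0.5) minus the mean of the gene over all wounds, with horizontal lines between roles and a vertical line between diabetic and non-diabetic wounds. WNT2 is below its mean in 6 of the 7 diabetic wounds and above it in all 4 non-diabetic wounds, whereas WNT3, WNT7B, WNT10A and WNT4 are lowest in D4 and N1.

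Outside the set, 96 other genes of the pathway were listed in 7 groups, of which 94 were found in the table and 86 were tested. NKD2 and CCN4 were called higher and GPC6 lower in diabetic wounds, and 83 were not called, against a background of 3.00% of all tested genes called in either direction. The median log2 fold change of the 86 genes was −0.02.

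NKD2 encodes a protein that restrains Dishevelled. It ran from 8.08 through a median of 13.4 to 14.8 FPKM in diabetic wounds and was 7.06, 7.14, 8.63 and 6.20 FPKM in N1 to N4. D1 alone lay within the non-diabetic range. NKD2 had a log2 fold change of 0.72 ± 0.16 (SE), with an adjusted p of 0.0346 by limma. Leaving out D1 or D2 kept the call, and leaving out any other wound lost it, with adjusted p-values of 0.0530 to 0.105. NKD1, in the same group of genes, was not called. It averaged 3.53 ± 1.21 FPKM in the diabetic wounds against 4.97 ± 1.58 FPKM in the non-diabetic ones. Its log2 fold change was −0.45 (adjusted p = 0.371 by limma).

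CCN4, listed in the table as WISP1, is a secreted matricellular protein and a textbook target of the pathway. It ran from 21.9 through a median of 27.6 to 40.2 FPKM in diabetic wounds and was 20.5, 16.5, 11.8 and 20.04 FPKM in N1 to N4, without overlap. The log2 fold change of WISP1 was 0.75 ± 0.17 (SE), with an adjusted p of 0.0379 by limma. Leaving out D1 or D2 kept the call, and leaving out any other wound lost it, with adjusted p-values of 0.0530 to 0.114.

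GPC6, a glypican of the cell surface, ran from 0.756 through a median of 1.22 to 1.64 FPKM in diabetic wounds and was 4.37, 1.83, 2.53 and 2.28 FPKM in N1 to N4, again without overlap. The log2 fold change was −0.92 ± 0.22 (SE), with an adjusted p of 0.0417 by limma. Leaving out D1 or N2 kept the call, and leaving out any other wound lost it, with adjusted p-values of 0.0502 to 0.110. Without D4 and N1 together none of NKD2, WISP1 and GPC6 was called. Their log2 fold changes were then 0.66, 0.85 and −0.71, with adjusted p-values of 0.122, 0.0699 and 0.131 by limma. GPC3 and GPC4, the other listed glypicans, were not called. GPC3 was 10.1 to 31.0 FPKM in the diabetic wounds against 8.25 to 12.7 FPKM in the non-diabetic ones. In 6 diabetic wounds it was above every non-diabetic wound. Its log2 fold change of 0.84 (adjusted p = 0.118 by limma) was the highest of the 86 genes. GPC3 was called in 2 of 23 refits. GPC4 had a log2 fold change of 0.15.

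By group, 0 of 5 genes of Wnt secretion were called by limma, TMED2 being the most abundant at 183 ± 12.3 FPKM in the diabetic wounds against 187 ± 14.9 FPKM in the non-diabetic ones. Among other receptors 1 of 11 was called, and the most abundant, PTK7, had a log2 fold change of −0.16. Among genes of receptor turnover and other antagonists 1 of 12 was called, and the most abundant, SERPINF1, had a log2 fold change of 0.38. Of the destruction complex and Dishevelled group 0 of 17 were called, DVL1 being the most abundant with a log2 fold change of 0.18. Of the nuclear cofactors 0 of 15 were called, TLE5 being the most abundant with 0.24. Of the textbook target genes 1 of 12 was called, SNAI2 being the most abundant with 0.26. Of the planar cell polarity and non-canonical group 0 of 18 were called, RAC1 being the most abundant with 0.30.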

How the data were processed

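Poly(A) RNA of 11 day 10 wounds was sequenced from strand-specific libraries. Per the labels, reads were processed with fastp, HISAT2 2.2.1, StringTie 2.2.3 and featureCounts 2.0.6 on Sscrofa11.1, and the authors deposited 1 table of FPKM per gene and library with gene coordinates and lengths. The authors tested counts, and their counts are not used here. The main test here is on FPKM on a log scale. Reads recovered from FPKM are used for the voom alternative and for the read numbers given. Lengths of all 55 genes equalled the exonic bases of RefSeq. FPKM times length, divided by a step fitted for each library, gave whole reads, within 0.05, for at least 99.9% of values in each library. The read total implied by that step differed from the reads on genes. It was 2.86e+07 against 33516206 in N1 and 4.47e+07 against 37922563 in D2. FPKM therefore carries a scaling for each library that is not the number of reads on genes.

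Groups and replicate numbers came from the sample titles. FPKM was transformed as log2(FPKM + 0.5), genes with at least 0.5 FPKM in at least 4 libraries were kept (13956 of 30376), and limma 3.58.1 (R 4.3.3) was fitted with a trended prior and Benjamini-Hochberg adjustment over all tested genes. Each of the 55 genes was also compared with an exact two-sided permutation test (SciPy 1.17.1), unadjusted. The script was tested on simulated data. Reads on genes per library set the counting precision, and 1 minipig per group was available. Alternatives covered the pseudocount, filter, scaling, limma voom on recovered reads, library weights, prior, replicate number, library letter and left-out wounds.

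The genes and lists were chosen with earlier results of these data known. Values in every wound or group are given for each called gene, each tested gene of the 55 without overlap, the most abundant gene of each role, WNT2, AXIN2, LEF1 and LGR5, and others by mean, range or fold change. Of the listed pathway genes, CSNK1E and CELSR1 were not matched. Within each group every pair of libraries differed by more than sampling noise, with a chi-square per gene of at least 36.5. No library was therefore taken as a copy of another, and each wound was counted as 1 sample. This does not make wounds of 1 minipig independent animals. The replicate numbers of the groups belong to different animals. The deviations of same-numbered wounds correlated at −0.27, 0.22, 0.07 and −0.48, so the numbers were not taken to pair wounds.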

Additional observations from a re-analysis of the deposited data

Results flagged for a closer look

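In groups of 4 or 7 wounds, 5 of 86 groups of values had 1 wound whose gap to its nearest neighbour was a large share of the range of the group by the criterion of Dixon at the 95% level. Chance flags about 1 in 20 groups. WNT2 was 6.38 FPKM in N1, against 2.82 to 3.29 FPKM in the other non-diabetic wounds. RSPO1 was 8.74 FPKM in D4, against 1.51 to 3.11 FPKM in the other diabetic wounds. WNT11 was 1.61 FPKM in D6, against 0.143 to 0.668 FPKM, and WNT16 was 4.74 FPKM in D6, against 0.918 to 2.13 FPKM in the other diabetic wounds. DKKL1 was 4.99 FPKM in N2, against 3.75 to 3.92 FPKM in the other non-diabetic wounds. N1 and D4 are the wounds with few keratinocyte transcripts.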

How the results depend on the processing

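WNT2 kept its direction in all 23 alternatives and its call in 16. It was lost under quantile normalization (log2 fold change −0.94, adjusted p = 0.0579 by limma) and without D4 and N1 together. Each of these left 0 of the Wnt genes called lower, and leaving out 1 wound left 0 to 1. All tested genes called higher numbered 188, and 406 with library weights, 112 without D4 and N1, and 110 to 236 with 1 wound left out. Those called lower numbered 231, and 416, 100 and 99 to 246 in the same settings. Of the other pathway genes, 0 were called lower under quantile normalization, median centring, the library letter and without D4 and N1, and 0 to 1 with 1 wound left out. Those called higher numbered 1 without the filter or with the letter, 0 with median centring or without D4 and N1, and 0 to 3 with 1 wound left out. GPC6 was also not called without the filter (log2 fold change −0.92, adjusted p = 0.0654 by limma). The cause of these changes was not tested.

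With the replicate number as a block, 11 of all tested genes passed as higher and 5 as lower, 0 of the Wnt genes and 0 other pathway genes among them (WNT2 −1.05, adjusted p = 0.327 by limma). The numbers are not a pairing of wounds, and no diabetic wound correlated best with its own number. Under the block log2 fold changes turned to −0.039 for WNT3A, −0.24 for WNT5B, −0.018 for FZD1, −0.087 for FZD10, −0.083 for FZD7, 0.043 for FZD4, 0.071 for SFRP1 and 0.10 for SFRP5.

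Signs turned for 16 genes in 69 of 984 refitted values, none with an adjusted p below 0.758 or a reported log2 fold change beyond 0.25. With quantile normalization FZD1 was −0.061, FZD10 −0.0041 and FZD7 −0.056. With voom LRP6 was −0.0055, WNT3A −0.62 and FZD7 −0.0077, and with the letter FZD7 was −0.0074. With library weights LRP6 was −0.023, LEF1 −0.060, WNT10B 0.029, FZD2 0.086, SFRP1 0.051 and SFRP4 0.091. WNT3A was −0.13 with a pseudocount of 0.1, and without D4 and N1 LEF1 was −0.083 and FZD10 −0.042. With 1 wound left out the ranges were −0.071 to 0.057 for LRP6, −0.069 to 0.094 for LEF1, −0.46 to 0.17 for WNT3, −0.14 to 0.16 for WNT3A, −0.14 to 0.21 for WNT5B, −0.092 to 0.15 for FZD1, −0.15 to 0.18 for FZD10, −0.16 to 0.043 for FZD2, −0.084 to 0.17 for FZD5, −0.11 to 0.15 for FZD7, −0.0084 to 0.56 for DKK2, −0.19 to 0.13 for SFRP1, −0.42 to 0.080 for SFRP4 and −0.22 to 0.11 for SFRP5. Low reads limit the 15 genes under the filter, and 1 minipig per group limits every comparison.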
